A study of Mus musculus with 8 samples.

Results

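H3K9ac ChIP-seq peaks of curcumin-treated *GFI1-36S* and curcumin-treated *GFI1-KD*, *NUP98-HOXD13-tg* mice were compared on the 19 autosomes. The members were chosen by sample title and not by their values. They are the 19931 autosomal peaks of the *GFI1-36S* curcumin library and the 30085 autosomal peaks of the *GFI1-KD* curcumin library, 50016 of the 220499 peaks listed in the 6 H3K9ac libraries of the series. Both libraries came from frozen bone marrow (BM) cells of C57BL/6 mice that carried the NUP98-HOXD13 transgene. This fusion gene gives mice a disease like human myelodysplastic syndrome. *GFI1-36S* mice express the common serine form of human GFI1 from a cDNA in the murine locus, and *GFI1-KD* mice express less GFI1. Both received 20 mg/kg curcumin each week by i.p. injection, whereas the vehicle mice of the series received DMSO. The ages of the mice are not given in the sources used here. There was 1 library per group, so that no difference below has a replicate check, no p-value is given, and each difference compares these 2 libraries.

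GFI1 is a zinc finger repressor that brings histone deacetylases and demethylases to its target genes, and it takes part in neutrophil, stem cell and lymphocyte development. H3K9ac is a mark of active promoters and enhancers, so a list of H3K9ac peaks from whole BM shows which lineage genes were active in the cells sampled. In BM these are mostly neutrophils, monocytes and erythroid cells with some B cells, and T cells are a minor population. In a bulk library, fewer cells of a type and less acetylation per cell cannot be told apart.

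The names of the *GFI1-36S* lists state the opposite treatments to the sample titles. The titles were followed here, and what the other *GFI1-36S* library gives against *GFI1-KD* curcumin is stated where the direction depends on it. The list names also read as a single knock-in allele for *GFI1-36S* and as a homozygous knock-down, which the titles do not state. The *GFI1-36S* curcumin library had no peak at the *Xist* promoter, where each of the other 5 libraries had 1 peak, and it alone had peaks on chromosome Y, 3 in number. The *GFI1-36S* vehicle library was like the *GFI1-KD* libraries in both respects. Between the curcumin libraries, sex and genotype therefore cannot be told apart. Whole fragment counts at the summits were recovered for 100% of the *GFI1-36S* peaks and 99.9% of the *GFI1-KD* peaks, with a median of 36 fragments in both. The mean number of fragments per base of the genome was 4.61 in *GFI1-36S* and 4.95 in *GFI1-KD*, so that depth differed little. The median fold enrichment of a peak over its local background was 6.06 and 5.80, and the peaks covered 16.0 Mb and 28.4 Mb.

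The following windows come from sites of 1 library alone that lay over 2500 bp from any annotated TSS (distal sites). They are shown because their nearest lineage genes were nearest to the most such sites, and because they hold DNA of sites that differed. The summits lay between 5161 bp (*Bcl11b*) and 120422 bp (*Cxcr4*) from the nearest start of the gene. Whether these sites regulate the genes was not tested. Each is the 201 bases around the summit of the strongest such site of its gene whose window held no annotated exon. The plus strand of GRCm38 (mm10) is given, with matches to 9 of the 10 motif families searched in capitals. CACCC (KLF), which stood at 41.6% of all distal sites, was left unmarked. *Ets1*, a T- and B-cell transcription factor, was nearest to 18 distal sites of *GFI1-36S* alone, *Bcl11b*, which commits progenitors to the T lineage, to 16 and *Thy1*, which encodes a T-cell surface protein, to 11. *Bach2*, a repressor of lymphoid cells, was nearest to 19 distal sites of *GFI1-KD* alone, *Runx1*, a regulator of blood stem cells, to 18 and *Cxcr4*, the receptor that holds stem cells in the BM, to 14. In all, 27 distal sites were nearest to *Cxcr4*, 8 of them in *GFI1-36S* alone and 5 in both. The share in *GFI1-KD* alone was thus smaller for *Cxcr4* than the 68.5% of all distal sites. The choice was made after the values were seen.
Ets1 intron, GFI1-36S alone, chr9:32707177-32707377: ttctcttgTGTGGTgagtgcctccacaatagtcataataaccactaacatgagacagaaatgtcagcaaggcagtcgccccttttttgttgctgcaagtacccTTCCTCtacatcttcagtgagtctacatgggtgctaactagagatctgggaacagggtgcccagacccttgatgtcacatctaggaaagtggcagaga
Bcl11b intron, GFI1-36S alone, chr12:107998153-107998353: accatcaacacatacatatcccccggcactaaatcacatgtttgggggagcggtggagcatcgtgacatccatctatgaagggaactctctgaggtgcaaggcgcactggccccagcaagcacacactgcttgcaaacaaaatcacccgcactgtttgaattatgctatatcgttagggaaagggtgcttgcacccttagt
Thy1 upstream, GFI1-36S alone, chr9:44033566-44033766: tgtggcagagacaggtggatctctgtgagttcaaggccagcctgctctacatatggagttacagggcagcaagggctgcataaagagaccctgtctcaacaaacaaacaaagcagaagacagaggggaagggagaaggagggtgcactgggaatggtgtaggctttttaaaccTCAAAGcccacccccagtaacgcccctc
Bach2 intron, GFI1-KD alone, chr4:32343638-32343838: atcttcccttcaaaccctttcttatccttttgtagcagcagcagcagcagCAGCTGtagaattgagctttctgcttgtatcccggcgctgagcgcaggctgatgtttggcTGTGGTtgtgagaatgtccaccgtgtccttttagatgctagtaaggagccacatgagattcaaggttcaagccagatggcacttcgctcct
Runx1 intron, GFI1-KD alone, chr16:92715199-92715399: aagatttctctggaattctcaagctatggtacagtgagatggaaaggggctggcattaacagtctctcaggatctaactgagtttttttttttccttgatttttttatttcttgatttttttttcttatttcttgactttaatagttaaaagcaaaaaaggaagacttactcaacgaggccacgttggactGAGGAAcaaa
Cxcr4 intergenic, GFI1-KD alone, chr1:128712615-128712815: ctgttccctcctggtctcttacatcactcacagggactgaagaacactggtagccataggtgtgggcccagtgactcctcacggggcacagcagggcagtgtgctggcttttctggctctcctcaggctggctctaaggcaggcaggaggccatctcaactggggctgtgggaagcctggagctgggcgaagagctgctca

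In these windows the capitals mark TGTGGT (RUNX) and TTCCTC (PU.1, the complement of GAGGAA) beside *Ets1*, TCAAAG (TCF/LEF, the complement of CTTTGA) beside *Thy1*, CAGCTG (E-box) and TGTGGT beside *Bach2* and GAGGAA beside *Runx1*. The windows beside *Bcl11b* and *Cxcr4* held none of the 9 marked families, and CACCC or its complement GGGTG stands unmarked beside *Bcl11b*, *Ets1* and *Thy1*. The *Ets1* site covered chr9:32706783-32707672 and had a rank of 46.4 on a scale of fold enrichment from 0 (no peak) to 100 (the strongest peak of the library). The *Bcl11b* site at chr12:107997486-107998828 had a rank of 51.4 and the *Thy1* site at chr9:44032872-44034511, inside an annotated intron, a rank of 47.1. None of these 3 sites had a peak in any of the other 5 libraries. The ranks of the *Bach2*, *Runx1* and *Cxcr4* sites in *GFI1-KD* curcumin were 63.0, 62.2 and 56.1, and all 3 sites also had a peak in each of the other 4 libraries outside the comparison.

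Promoter peaks were fewer and mostly weaker in *GFI1-36S* curcumin than in *GFI1-KD* curcumin, with chromosome 15 as an exception that is described further on. Of 20807 autosomal protein-coding genes, 11336 had a peak within 1 kb of a TSS in at least 1 of the libraries and 9365 in both. A peak was found in *GFI1-36S* alone for 306 genes (2.70%) and in *GFI1-KD* alone for 1665 genes (14.7%). At promoters with a peak in both, the summit held a median of 74.0 fragments in *GFI1-36S* and of 131 in *GFI1-KD*, a median ratio of 0.628 after scaling to the mean fragments per base. On the rank scale, the strongest promoter peak of a gene was a median of 8.05 points lower in *GFI1-36S* over all genes with a peak. Ranks were at least 25 points higher in *GFI1-36S* for 328 genes (2.89%) and in *GFI1-KD* for 2320 genes (20.5%). The lists of genes below are read against these values. The promoters of *GFI1-KD* alone were promoters of the series at large, as 1285 of the 1665 (77.2%) had a peak in each of the other 4 libraries and 27 (1.62%) in none. Of the 306 promoters of *GFI1-36S* alone, 49 (16.0%) had a peak in each of the other 4 and 99 (32.4%) in none. Of the promoters with a peak in 1 library, 15.5% (Wilson 95% interval 14 to 17.2) lay in *GFI1-36S*, which became 25.8% with equal numbers of peaks and 67.6% with the other *GFI1-36S* library. The intervals cover counting error only.

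*Gfi1* itself had a promoter peak in both libraries. Its rank was 86.1 in *GFI1-36S* with 87 fragments at the summit and 74.0 in *GFI1-KD* with 81 fragments. The ranks in the other 4 libraries lay between 75.4 and 84.8. The peak reports acetylation at the locus and does not measure GFI1, as the *GFI1-36S* mice carry a human cDNA there. *Kit*, the stem cell factor receptor of progenitors and blasts, had no promoter peak in *GFI1-36S* curcumin, a rank of 46.0 with 31 fragments in *GFI1-KD* curcumin, and ranks of 57.0 to 82.1 in the other 4 libraries.

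Genes of T-cell receptor signalling ranked higher in *GFI1-36S* curcumin, against the median of all genes. The list holds 32 annotated genes, of which 25 had a promoter peak in *GFI1-36S* and 12 in *GFI1-KD*. Of the 26 genes with a peak in either, 14 (53.8%) had it in *GFI1-36S* alone and 1, *Rag2*, in *GFI1-KD* alone. The median difference in rank was 44.0 points. Over the 11 genes with a peak in both it was 16.4 points, and with the other *GFI1-36S* library it was 4.5 points where all genes had 4.0. *Zap70*, the kinase that binds the activated T-cell receptor, had a rank of 91.4 with 101 fragments in *GFI1-36S* and no peak in *GFI1-KD*. *Cd247*, which encodes the receptor's zeta chain, had a rank of 85.5 with 102 fragments and no peak. *Themis*, needed for thymocyte selection, had a rank of 73.5 and no peak in *GFI1-KD*. In the remaining libraries *Cd247* had a weak peak or none, between 0 and 49.3, whereas *Zap70* reached 60 and *Themis* 71.4. The chains of the receptor complex and its co-receptors were present together in *GFI1-36S*. *Cd3e* had a rank of 65.5, *Cd3g* of 59.6, *Cd4* of 62.3, *Cd8b1* of 49.0 and *Cd2* of 53.6. These 5 genes and *Skap1* had a peak in *GFI1-36S* curcumin and in none of the other 5 libraries, a pattern that 99 of the 20807 genes showed. *Cd3d* ranked at 64.4 in *GFI1-36S* and 71.4 in *GFI1-KD*, and *Lck* at 63.3 and 71.0. The *Cd3d* peaks lay at different TSSs, chr9:44981668-44983842 in *GFI1-36S* and chr9:44986088-44986727 in *GFI1-KD*, so these ranks do not compare 1 promoter. *Cd8a*, *Ptcra* (the pre-T-cell receptor alpha chain) and *Rag1* had no promoter peak in any of the 6 libraries.

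**Figure D1:**
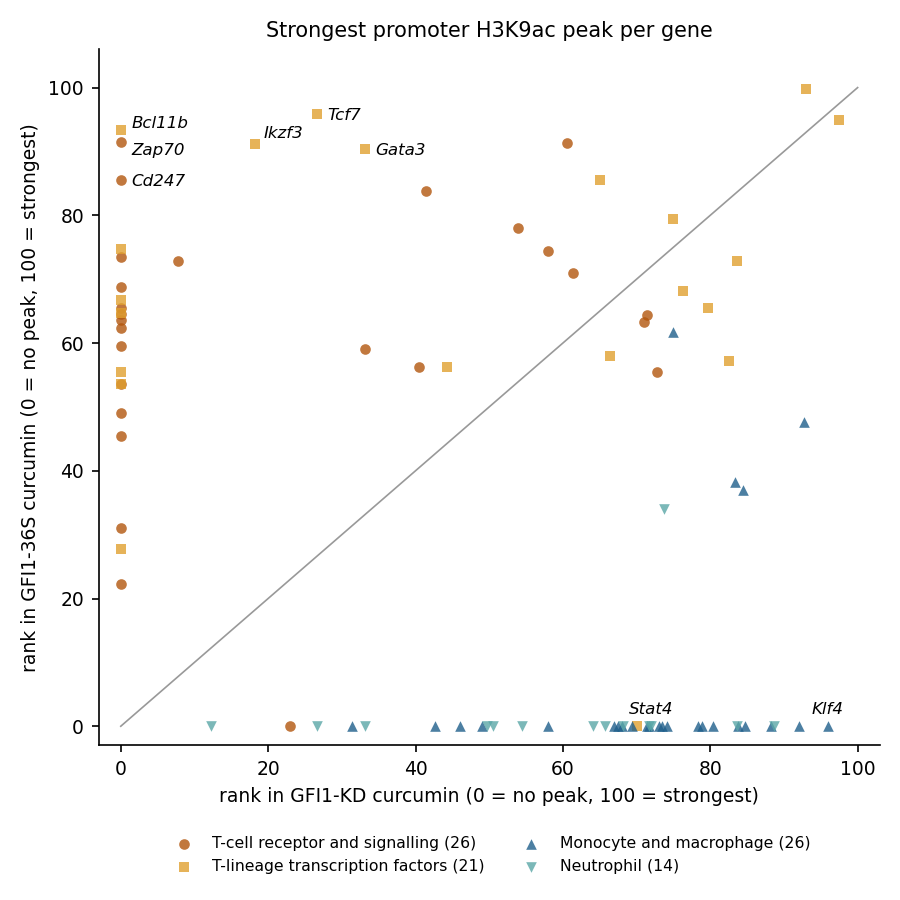
The rank of each gene's strongest promoter peak in *GFI1-KD* curcumin (x axis) against that in *GFI1-36S* curcumin (y axis), from 0 for no peak to 100 for the strongest peak, for the T-cell receptor (26 genes), T-lineage transcription factor (21), monocyte (26) and neutrophil (14) lists; the line marks equal ranks. Most T-cell receptor genes lie above the line, 14 of them at 0 on the x axis, and all monocyte and neutrophil genes lie below it.

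Transcription factors of the T lineage were split. Of 23 genes, 20 had a promoter peak in *GFI1-36S* and 14 in *GFI1-KD*, 7 of 21 (33.3%) had it in *GFI1-36S* alone, and the median difference was 20.5 points. With the other *GFI1-36S* library it was 12.7 points, again above the 4.0 of all genes. *Bcl11b* had a rank of 93.4 with 108 fragments in *GFI1-36S* and no peak in *GFI1-KD*. *Tcf7*, a factor of T-lineage specification, ranked at 95.9 against 26.6, and *Gata3*, which acts beside it, at 90.4 against 33.1. *Ikzf3*, an Ikaros factor of lymphocytes, ranked at 91.1 with 100 fragments against 18.2 with 21 fragments. Its peaks lay at different TSSs, chr11:98544690-98546758 in *GFI1-36S* and chr11:98476583-98476993 in *GFI1-KD*. *Tox* ranked at 74.8 and *Lef1* at 55.4 with no peak in *GFI1-KD*. Other members were lower in *GFI1-36S*. *Stat4*, the signal transducer of interleukin-12, had no peak in *GFI1-36S* and a rank of 70.1 in *GFI1-KD*, and *Notch1*, the receptor that starts the T-cell programme, ranked at 57.2 against 82.5.

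The T-cell receptor loci themselves, added after the values were seen, held more peaks in *GFI1-36S* curcumin than in *GFI1-KD* curcumin. The alpha and delta locus (chr14:52427928-54224206) held 41 peaks over 37710 bp in *GFI1-36S* curcumin, the strongest at rank 96.5. It held 2 peaks over 968 bp in *GFI1-KD* curcumin and 2 to 6 in each of the other 4 libraries. The gamma locus (chr13:19210343-19342212) held 5 peaks over 15430 bp against none in *GFI1-KD* curcumin, whereas *GFI1-36N* vehicle held 9 peaks over 6743 bp there, with a highest rank of 58.9 against 84.8 in *GFI1-36S* curcumin. At the beta locus (chr6:40891229-41558452) the *GFI1-36S* library held 4 peaks over 7336 bp, with a highest rank of 95.5, and *GFI1-KD* 1 peak of 753 bp at rank 12.6. Both *GFI1-36N* libraries held more peaks there, 10 and 9, but with highest ranks of 68.9 and 75.1. The immunoglobulin heavy chain locus had 1 peak in *GFI1-36S* and 2 in *GFI1-KD*, and the kappa and lambda loci had 0 in both.

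Myeloid genes were the reverse of the T-cell genes. Of 27 neutrophil genes, 1 had a promoter peak in *GFI1-36S* curcumin, 14 in *GFI1-KD* curcumin and 19 to 24 in each of the other 4 libraries. All 13 of the genes with a peak in 1 library had it in *GFI1-KD*, and the median difference over the 14 genes was −59.3 points. With the other *GFI1-36S* library the direction turned, to 28.6 points. *Csf3r*, the G-CSF receptor, had a rank of 88.7 with 141 fragments in *GFI1-KD*, and *Hp* (haptoglobin) of 83.6. *Mpo*, the granule enzyme myeloperoxidase, ranked at 72.0 and *Mcemp1* at 71.7, and none of these had a peak in *GFI1-36S*. The remaining gene, *Prtn3* (proteinase 3), ranked at 34.0 in *GFI1-36S* and 73.7 in *GFI1-KD*. The secondary granule genes *Camp*, *Ltf* and *Ngp* had a peak in neither curcumin library and ranks of 2.47 to 82.4 in the other 4.

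Of 35 monocyte and macrophage genes, 4 had a promoter peak in *GFI1-36S* and 26 in *GFI1-KD*, all 26 ranked lower in *GFI1-36S*, and the median difference was −70.4 points, or −3.5 points with the other *GFI1-36S* library. *Klf4*, a monocyte transcription factor, had a rank of 96.0 with 184 fragments in *GFI1-KD*. *Emilin2* had a rank of 92.0, *Cd14*, the endotoxin co-receptor, of 88.3 and *Csf1r*, the receptor for macrophage colony-stimulating factor, of 84.7. None of these had a peak in *GFI1-36S* curcumin, and their ranks in the other 4 libraries lay between 77.0 and 95.8. The 4 shared genes were *F13a1* (38.3 against 83.3), *Irf8* (37.0 against 84.5), *Tlr2* (47.7 against 92.7) and *Vcan* (61.8 against 75.0). A peak in all libraries but *GFI1-36S* curcumin was found for 20 monocyte and 13 neutrophil genes, beside 1285 of the 20807 genes in all.

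More of the myeloid transcription factors had a peak in both libraries, with 10 of 15 in *GFI1-36S* and 15 in *GFI1-KD*, and a median difference of −49.7 points. *Cebpd* had a rank of 97.2 with 196 fragments and *Cebpa*, the factor that granulocyte formation requires, of 91.8 with 156 fragments in *GFI1-KD*, and neither had a peak in *GFI1-36S*. *Spi1*, which encodes PU.1, ranked at 46.4 against 99.7, and *Cebpb* at 78.3 against 95.9.

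**Figure D2:**
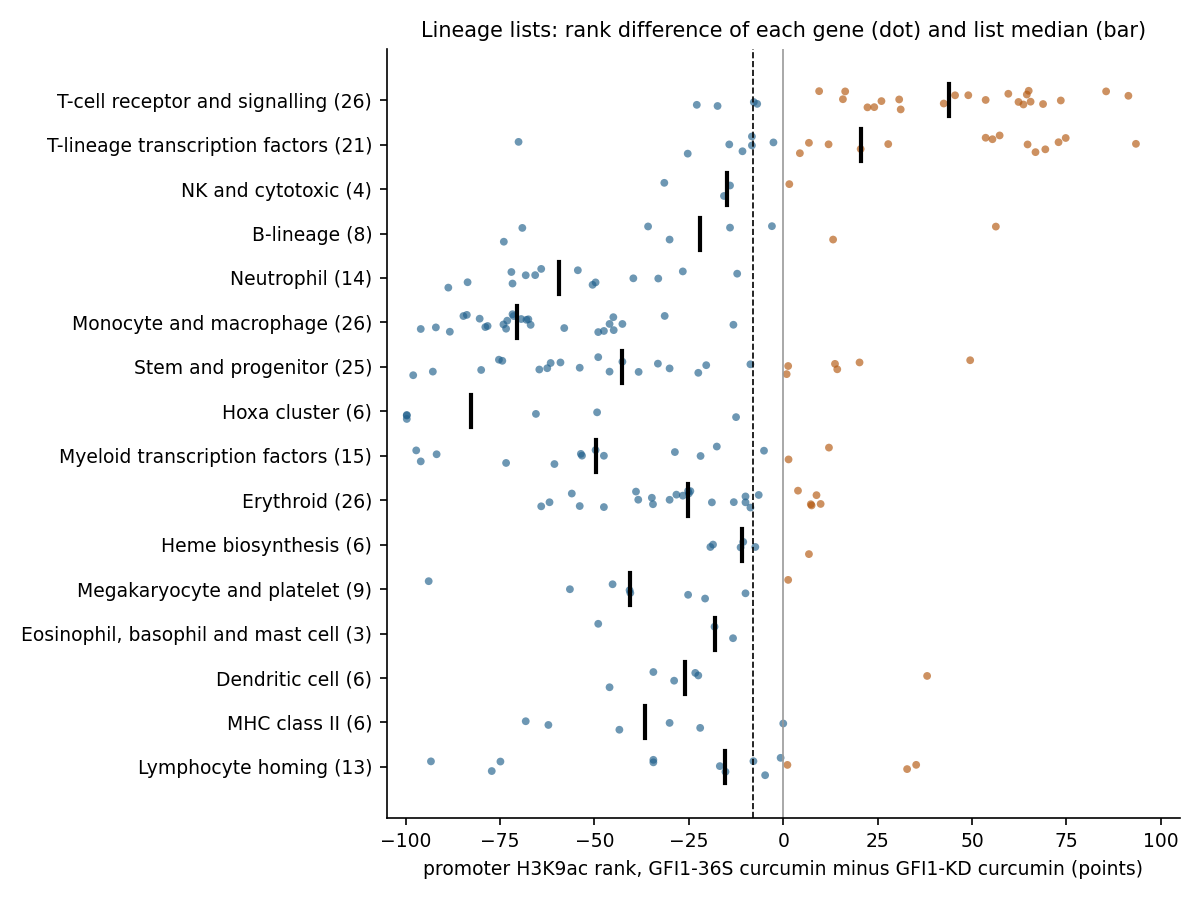
The difference in promoter rank, *GFI1-36S* curcumin minus *GFI1-KD* curcumin in points (x axis), for each gene with a peak in either library (dots, with random vertical spread) in 16 lineage lists, with the number of genes in parentheses. Black bars are the list medians and the dashed line is the median of all genes, −8.05; the medians of the 2 T-cell lists lie at 44.0 and 20.5, and those of the other 14 lists lie below 0.

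Stem and progenitor genes differed by member. Of 31 genes, 10 had a promoter peak in *GFI1-36S* curcumin and 24 in *GFI1-KD* curcumin, and the median difference was −42.6 points, or 5.2 points with the other *GFI1-36S* library. *Lmo2* and *Lyl1*, members of a stem cell transcription complex, had ranks of 98.0 and 92.8 in *GFI1-KD* and no peak in *GFI1-36S*. *Erg*, a stem cell ETS factor, ranked at 80.0 and *Cd93* at 75.3 in *GFI1-KD* alone. *Tal1*, *Cd34*, *Meis1* and *Mecom* had no peak in *GFI1-36S* and ranks of 64.6, 62.5, 61.6 and 42.6 in *GFI1-KD*. Other members had a peak in both libraries, and they went either way (genes chosen after their values were seen). *Myb* ranked at 95.8 against 81.4, *Sox4* at 95.7 against 75.5, *Bmi1* at 90.8 against 77.1 and *Fli1* at 98.4 against 97.0. *Flt3*, a cytokine receptor of early progenitors, ranked at 34.0 against 56.5, *Egfl7* at 43.0 against 51.7 and *Runx1* at 70.2 against 90.6. For the 9 genes with a peak in both, the median difference was 0.9 points, so that the direction of the list rests on the 16 genes with a peak in 1 library.

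The *Hoxa* cluster, which NUP98 fusions keep active in leukaemia, was among the strongest regions of *GFI1-KD* curcumin. One peak of 20528 bp (chr6:52210728-52231255) covered the promoters of *Hoxa3*, *Hoxa7* and *Hoxa9* with a rank of 99.7 and 252 fragments, and it was the widest peak of that library. None of these promoters had a peak in *GFI1-36S* curcumin. Their ranks were 99.3 in *GFI1-36S* vehicle, 99.8 and 99.9 in the *GFI1-36N* libraries, and 57.3 to 74.6 in *GFI1-KD* vehicle. *Hoxa10* ranked at 65.5 in *GFI1-KD* curcumin alone. *Hoxa4* had a peak in both libraries, with ranks of 53.0 in *GFI1-36S* and 65.5 in *GFI1-KD*. Over the 6 genes with a peak, 4 in *GFI1-KD* alone, the median difference was −82.6 points, but 3 of them share 1 peak.

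Fewer erythroid genes had a promoter peak in either curcumin library than in the others, and the fewest in *GFI1-36S* curcumin. Of 41 genes, 14 had a promoter peak in *GFI1-36S* curcumin and 26 in *GFI1-KD* curcumin, against 32 to 40 in the other 4 libraries, and the median difference was −25.1 points. The direction turned to 34.7 points with the other *GFI1-36S* library, and ranked among promoter peaks the median was −6.9 points where all genes had −5.0. *Tmcc2* ranked at 61.9 in *GFI1-KD* alone. *Icam4* and *Trim58* ranked at 56.0 and 53.9, again with no peak in *GFI1-36S*. The globin genes *Hba-a1*, *Hba-a2*, *Hbb-bs* and *Hbb-bt* had a promoter peak in neither curcumin library. Genes of heme biosynthesis were shared, as the same 6 of 8 genes had one in both libraries, with a median difference of −10.9 points. *Fech*, the enzyme that inserts iron, ranked at 72.1 against 91.4, *Urod* at 66.1 against 84.7, *Alad* at 72.4 against 83.7 and *Alas1* at 83.0 against 93.5.

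The other lineages were less well covered. Megakaryocyte genes had a median difference of −40.5 points over 9 genes, 6 of them with a peak in *GFI1-KD* alone. *Plek*, a platelet kinase substrate, ranked at 93.9 there, *Cd9* at 56.5 and *Itga2b*, which encodes platelet integrin αIIb, at 45.2, with no peak in *GFI1-36S*, and *Itgb3* ranked at 23.9 against 64.6. Few B-cell genes had a peak in either library, 8 of 22, with a median difference of −22.1 points, or 6.4 points with the other *GFI1-36S* library. *Cd79b* (74.0), *Bach2* (69.1) and *Cd72* (30.1) had a peak in *GFI1-KD* and none in *GFI1-36S*, *Ralgps2* ranked at 26.1 against 61.9, and *Pou2af1* had a rank of 56.3 in *GFI1-36S* alone. *Pax5*, *Ms4a1* and *Cd79a* had a peak in neither.

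Natural killer genes gave 4 genes with a peak and a median of −14.9 points. *Klrk1* (31.5), *Klrd1* (15.7) and *Nkg7* (14.1) had a peak in *GFI1-KD* alone, and *Gzma* had a rank of 1.57 in *GFI1-36S* alone. Genes of MHC class II antigen presentation had a median of −36.7 points over 6 genes, and *H2-Ob* (68.2), *H2-DMb1* (62.2), *H2-Eb1* (43.4) and *H2-DMb2* (30.1) had a peak in *GFI1-KD* and none in *GFI1-36S*. Dendritic cell genes had a median of −26.1 points over 6 genes, with *Zbtb46* at 46.0 in *GFI1-KD* alone, *Ccr9* at 8.22 against 42.6, *Runx2* at 44.8 against 73.7 and *Batf3* at 58.5 against 20.5. The *Ccr9* peaks lay at different TSSs, chr9:123767343-123767533 in *GFI1-36S* and chr9:123678347-123678619 in *GFI1-KD*. The list of eosinophil, basophil and mast cell genes had 3 genes with a peak and a median of −18.2 points. Here *Gata2* (49.0) and *Siglecf* (18.2) had a peak in *GFI1-KD* alone, and *Hdc*, the histamine-forming enzyme, ranked at 48.3 against 61.6 with peaks at different TSSs. Genes of lymphocyte homing had a median of −15.3 points over 13 genes. Of these, the integrin gene *Itga4* had a rank of 93.3 and *Gpr183* of 77.2 in *GFI1-KD* alone, and *Ccr7*, the lymph node homing receptor, had a rank of 35.2 in *GFI1-36S* alone.

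Several gene functions that all cells share had medians close to 0. Of 47 genes of DNA replication and mitosis, all had a peak in both libraries, 24 ranked higher in *GFI1-36S* and the median difference was 0.4 points. All 72 genes of cytosolic ribosomal proteins with a peak had it in both, 50 ranked higher in *GFI1-36S* and the median was 2.0 points. *Rpl37*, *Rpl30*, *Rps3a1* and *Rpl10a* had the largest differences of that list, between 13.5 and 17.3 points, and *Rpl37* and *Rpl30* lie on chromosome 15. In fragments, the ribosomal promoters were also lower in *GFI1-36S*, with a median scaled ratio of 0.821, so that their higher rank is relative to the other peaks of the library. Oxidative phosphorylation (−1.4 points, 72 genes), the proteasome (−1.7, 31), mitochondrial ribosomal proteins (−2.7, 74) and histone acetyltransferases (−3.8, 13) also lay above the median of all genes. For 16 genes of the complexes that GFI1 works with, such as *Kdm1a* (92.8 against 92.5) and *Rcor1* (90.4 against 95), the median was −5.3 points, and all 16 had a peak in both. Over all promoters with a peak in both, the median was −6.13 points and the median scaled ratio 0.628. This ratio was nearly the same for histone acetyltransferases (0.632) and the GFI1 complexes (0.631). It was higher for oxidative phosphorylation (0.701), mitochondrial ribosomal proteins (0.698) and the proteasome (0.682). Other such lists lay below the median of all genes. Histone deacetylases had a median of −12.0 points over 13 genes, replication-dependent histones of −11.9 over 40 and glycolysis and pentose phosphate genes of −16.8 over 22.

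Lists of inducible genes lay below the median of all genes, −8.05 points, by varying amounts. All 27 immediate early and AP-1 genes with a peak ranked lower in *GFI1-36S*, by a median of 17.4 points. Of these, 3 (11.1%, below the 14.7% of all genes) had no peak there, *Atf3*, *Fosl1* and *Klf4*. *Jun* ranked at 39.2 against 99.7, *Egr1* at 37.0 against 90.6 and *Fosl2* at 62.6 against 99.2, whereas *Jund* ranked at 99.6 and 99.7 (genes chosen after their values were seen). At the 23 genes with fragments in both, the median scaled ratio was 0.468, against 0.628 for all shared promoters. Of 42 interferon-stimulated genes, 39 ranked lower in *GFI1-36S*, 8 (19%, beside 14.7% of all genes) had a peak in *GFI1-KD* alone, 1 in *GFI1-36S* alone, and the median was −13.7 points. With equal numbers of peaks this median was −3.4 points, where that of all genes was −0.9, and with the other *GFI1-36S* library it turned to 11.9 points. NF-kB pathway genes had a median of −15.5 points (22 genes), NRF2 antioxidant genes of −12.2 (17), BCL2 family genes of −17.8 (13) and cytokine receptors of −17.4 (22). The share with a peak in *GFI1-KD* alone was 9.09% for NF-kB, 15.4% for BCL2 family and 17.6% for NRF2 genes, near or below that of all genes. For cytokine receptors it was higher, at 27.3%. At promoters with a peak in both, the median scaled ratio was 0.503 for BCL2 family, 0.522 for NF-kB, 0.572 for NRF2 and 0.588 for interferon-stimulated genes. Cytokine receptors had 0.644, slightly above the 0.628 of all shared promoters.

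Some of the strongest promoters were found in 1 library alone. In *GFI1-36S* curcumin these were *Gpr25* (rank 96.1), *Smo* (94.4), the receptor-like protein of Hedgehog signalling, *Bcl11b* (93.4), *Zap70* (91.4), *Xkr6* (89.9) and *Endou* (85.9). *Gpr25* and *Xkr6* had a promoter peak in none of the other 5 libraries, and *Smo* had one in each of the 4 libraries outside the comparison. *Xkr6* lies on chromosome 14 and *Endou* on chromosome 15, which are described further on. In *GFI1-KD* curcumin they were the *Hoxa* promoter region (99.7), *Sgms2* (99.4), *Pmaip1* (99.3), *Nlrx1* (99), *Dennd5a* (98.9) and *Sirpa* (98.8). *Zeb2*, with the same rank as *Sirpa*, and these genes outside the *Hoxa* cluster had ranks of 93.1 or more in all 4 other libraries. *Sgms2* encodes a sphingomyelin synthase, *Pmaip1* the death protein NOXA and *Sirpa* the myeloid receptor for CD47.

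The presence of the list genes in all 6 libraries shows which of the 2 curcumin libraries stood apart. The T-cell receptor list had 25 promoter peaks in *GFI1-36S* curcumin and 12 to 16 in the other 5. The monocyte list had 4 in *GFI1-36S* curcumin and 25 to 28 in the other 5, and the stem and progenitor list had 10 and 22 to 25. For neutrophil and erythroid genes the *GFI1-KD* curcumin library, with 14 and 26 peaks, lay between *GFI1-36S* curcumin, with 1 and 14, and the others, with 19 to 24 and 32 to 40. Between the vehicle libraries of both genotypes the median difference in rank was 0.1 points over all genes, −0.1 over T-cell receptor genes, −6.5 over neutrophil genes and −4.5 over monocyte genes. It was larger for B-cell genes, with −21.7 points over 12 genes, close to the −22.1 of the curcumin libraries, and for the *Hoxa* cluster, with 22.7 points over 8 genes. Of these lists, the T-cell receptor, neutrophil, monocyte, stem and progenitor and erythroid differences described above were not seen in the same size and direction with the other *GFI1-36S* library. T-lineage transcription factors ranked above the median of all genes with either library. Their main median had a wide 95% interval over list members, −8.3 to 64.7, which holds the −8.05 of all genes. Over the 13 of these factors with a peak in both curcumin libraries the median was 4.4 points (−10.8 to 57.3), and between the vehicle libraries it was −1.2 points.

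**Figure D3:**
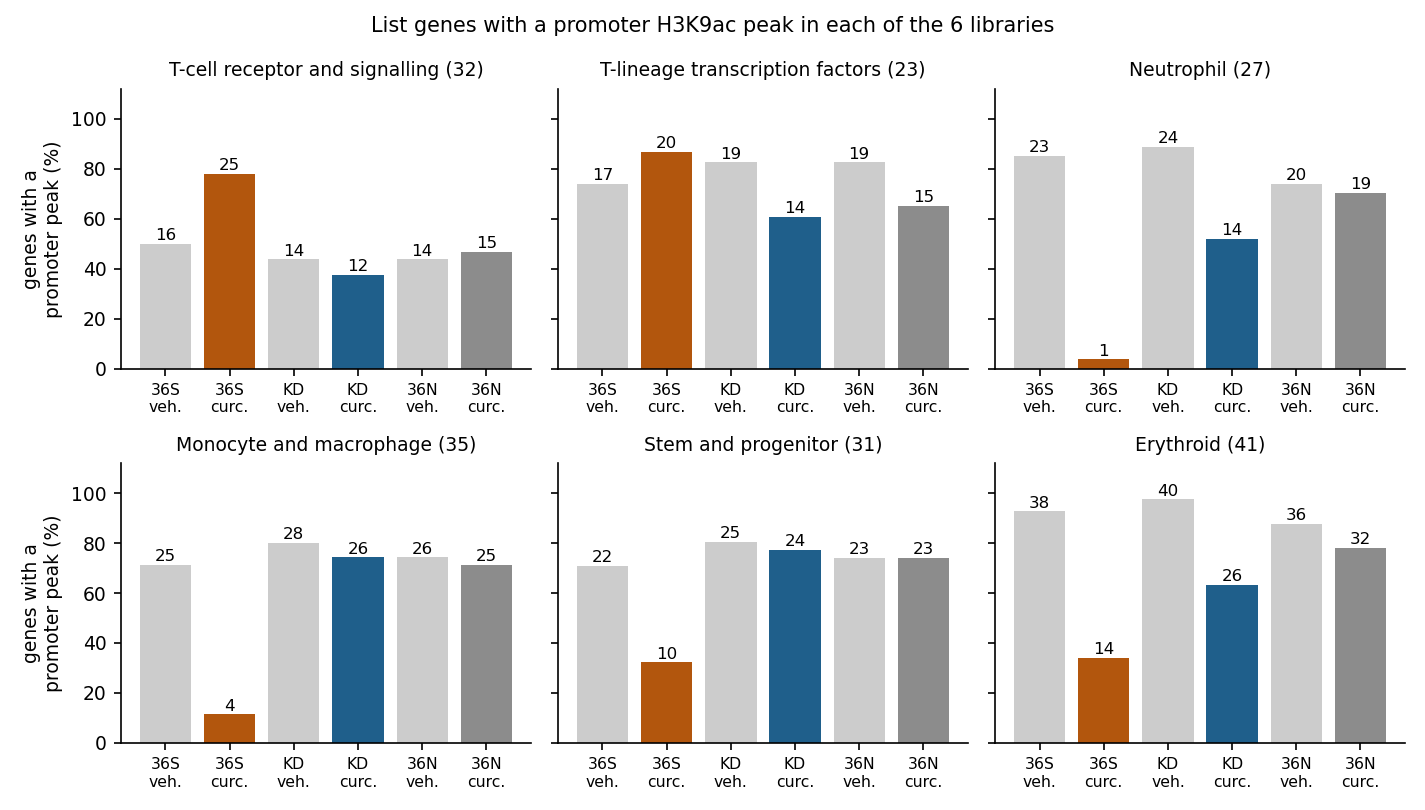
Bars give the percentage of the genes of 6 lists with a promoter peak in each library (y axis), with the number of genes above each bar and the size of the list in each title; veh. is vehicle and curc. is curcumin. The *GFI1-36S* curcumin bar is the highest of the 6 for T-cell receptor genes (25 of 32) and the lowest for neutrophil (1 of 27), monocyte (4 of 35), stem and progenitor (10 of 31) and erythroid genes (14 of 41).

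Chromosome 15 stood apart from the other autosomes. It held 6.54% of the autosomal peaks in *GFI1-36S* curcumin and 3.33% in *GFI1-KD* curcumin, and the share was 3.03% in *GFI1-36S* vehicle, 3.00% in *GFI1-KD* vehicle, and 4.68% and 5.26% in the *GFI1-36N* libraries. Of 390 promoters of chromosome 15 with a peak in both libraries, 76.7% ranked higher in *GFI1-36S*, with a median difference of 8.5 points, against −6.9 points for 8637 promoters of the other autosomes without chromosome 14. The difference lay along the whole chromosome, between 6.7 and 10.2 points in each 20-Mb bin. In fragments, the median scaled ratio was 1.05 on chromosome 15 and 0.614 on the other autosomes. Chromosome 14 was intermediate, with 4.35% of the peaks against 3.42%, a median difference of 0.6 points over 338 promoters and a scaled ratio of 0.802. Chromosome 15 also carried 14.3% of the distal sites of *GFI1-36S* alone and 2.21% of those of *GFI1-KD* alone. Of the 306 promoters of *GFI1-36S* alone, 31 (10.1%) lay on it, beside 2.16% of those of *GFI1-KD* alone and 4.03% of all promoters with a peak. The number of copies of a chromosome was not measured, and its part in these values was not tested. *Grap2*, *Fyb* and *Il7r* of the T-cell receptor list lie on chromosome 15. Without chromosomes 14 and 15, an alternative added after seeing the data, the median of that list was 44.0 points over 23 genes.

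**Figure D4:**
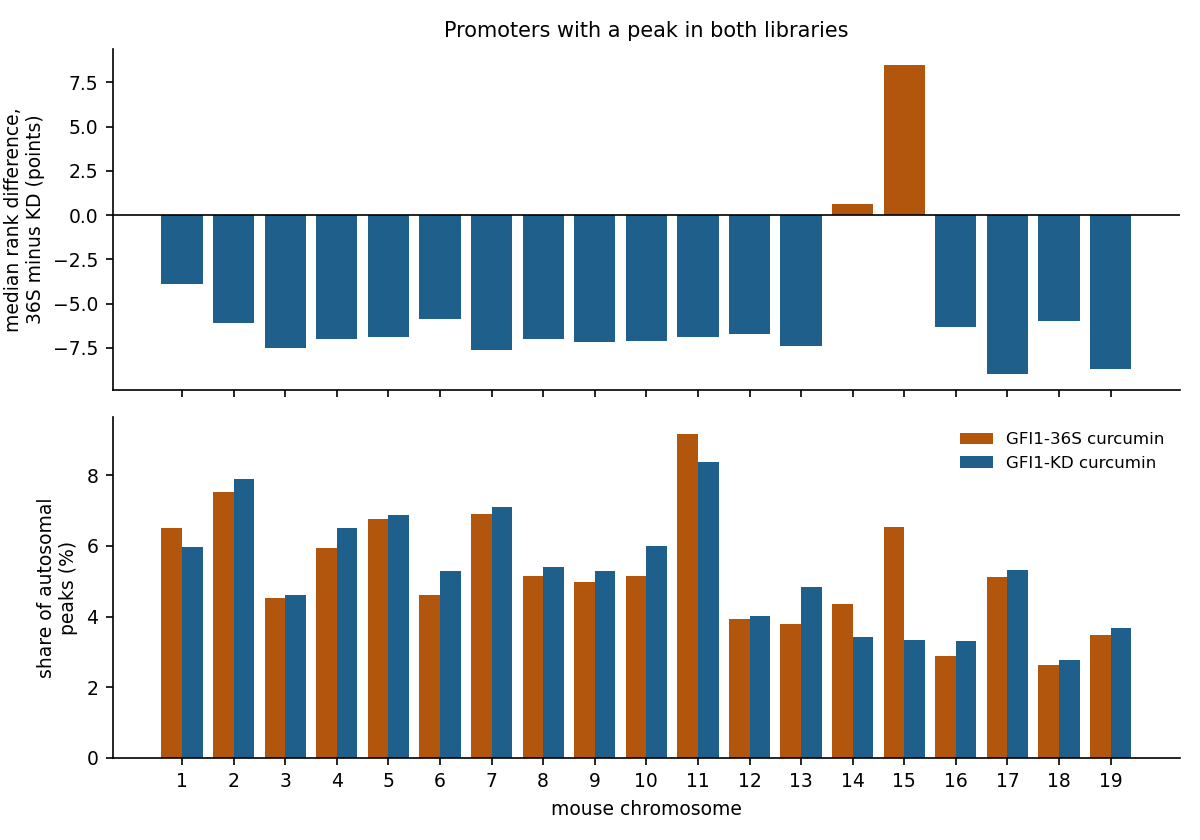
The upper panel gives the median difference in rank, *GFI1-36S* curcumin minus *GFI1-KD* curcumin in points, of the promoters with a peak in both libraries on each chromosome (x axis), and the lower panel the percentage of the autosomal peaks of each library on that chromosome. Chromosome 15 (8.5 points, 6.54% against 3.33%) and chromosome 14 (0.6 points) lie above 0, and the other 17 autosomes lie below it.

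The libraries shared few distal sites. The peaks merged into 34785 sites, of which 12167 (35.0%, Wilson 95% interval 34.5 to 35.5) had a peak in both. Of 15623 distal sites, 1784 (11.4%, 10.9 to 11.9) had a peak in both, 3130 (20.0%) in *GFI1-36S* alone and 10709 (68.5%) in *GFI1-KD* alone. The *GFI1-36S* library thus held 22.6% of the distal sites of 1 library (21.9 to 23.3), 42.3% with equal numbers of peaks and 74.1% when its other library took its place. Of the distal sites of *GFI1-36S* alone, 59.0% had a peak in none of the other 4 libraries and 7.96% in all 4. Of those of *GFI1-KD* alone, 6.76% had a peak in none and 51.4% in all 4. Sites of 1 library were narrower, with median widths of 309 bp in *GFI1-36S* and 376 bp in *GFI1-KD* against 821 bp for shared sites, and weaker, with median ranks of 19.7 and 30.1 in their own library. A shared site is the union of its overlapping peaks, and wide peaks overlap more readily. Part of the difference in width therefore follows from the definition. The summit lay in an intron for 66% of the sites of *GFI1-36S* alone, 54.6% of those of *GFI1-KD* alone and 50.3% of shared sites.

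Around the T-cell, monocyte, neutrophil and B-cell genes, the distal sites leaned to the same library as the promoters. Within 50 kb of the T-cell receptor genes lay 101 distal sites, 71 (70.3%) in *GFI1-36S* alone and 22 (21.8%) in *GFI1-KD* alone, beside 20.0% and 68.5% of all distal sites. Around the T-lineage transcription factors the counts were 68 (54.8%) and 40 (32.3%) of 124. Of these 68 sites, 16 lay within 50 kb of *Bcl11b*, 18 of *Ets1* and 9 of *Tcf7*, so the lean of this list rests largely on a few loci. Other members leaned to *GFI1-KD*. In *GFI1-KD* alone were 10 of the 11 sites around *Notch1*, 5 of 6 around *Runx3* and 7 of 11 around *Id3*. All 16 distal sites nearest to *Bcl11b* and all 11 nearest to *Thy1* were found in *GFI1-36S* alone, and 18 of the 22 nearest to *Ets1*. Around the monocyte genes 100 of 108 sites (92.6%) and around the neutrophil genes 31 of 37 (83.8%) were found in *GFI1-KD* alone. The same held for 43 of 48 sites (89.6%) around B-cell genes. Stem and progenitor genes, with 28.0% of 107 sites in *GFI1-36S* alone and 60.7% in *GFI1-KD* alone, and megakaryocyte genes, with 31.4% and 56.9% of 51, lay on the *GFI1-36S* side of all distal sites, unlike their promoters. Both lists hold *Fli1*, with 9 of the 16 sites within 50 kb of it in *GFI1-36S* alone and 4 in *GFI1-KD* alone. The shares of both lists thus rest in part on the same locus, so neither is read as a trait of its lineage. Interferon-stimulated genes lay further to the *GFI1-36S* side, with 36.2% of 58 sites in *GFI1-36S* alone and 55.2% in *GFI1-KD* alone. Erythroid genes (22.7% and 65.2% of 66) lay on that side too. So did natural killer (21.4% and 57.1% of 28) and MHC class II genes (3 and 8 of 12 sites). Their promoters leaned to *GFI1-KD*. Myeloid transcription factor, heme, dendritic cell, homing and eosinophil, basophil and mast cell genes leaned to *GFI1-KD* in both. All 12 distal sites nearest to *Klf4* and all 19 nearest to *Bach2* were found in *GFI1-KD* alone.

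By rank, the strongest distal site of *GFI1-36S* alone lay 32508 bp upstream of *Pum2* (chr12:8640750-8641626, rank 99.8, 180 fragments). The next lay in *Hlcs* (chr16:94251655-94254622, rank 91.1), downstream of *Dtl* (chr1:191517656-191519891, 86.3), at 2 places in *Camk2b* (chr11:6008630-6009191, 77.7, and chr11:6007473-6007800, 75.9) and in *Spata13* (chr14:60709437-60712027, 74.5). None of these genes is on a T-cell list. In *GFI1-KD* alone, the strongest site lay 117845 bp upstream of *Klf4* (chr4:55650311-55652540, rank 99.2, 229 fragments). It was followed by sites near *Nanos3* (chr8:84191389-84193190, 95.4), in *Casz1* (chr4:148940166-148942802, 95.3), near *Nxpe4* (chr9:48403535-48407007, 88.5), upstream of *Acta2* (chr19:34269921-34270628, 87.3) and in *Nav3* (chr10:109972916-109977263, 86.4).

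Broad peaks were fewer in *GFI1-36S*. Peaks of 4000 bp or more numbered 66 in *GFI1-36S* and 315 in *GFI1-KD*, and 30 in each overlapped a broad peak of the other. The widest of *GFI1-36S* lay at *Ikzf1*, the Ikaros gene (10396 bp), at the gamma T-cell receptor locus (10167 bp), at *Tcf7* (9148 bp) and at the alpha and delta T-cell receptor locus (9084 bp). They were followed by peaks at *Il17rb* and *Chdh* (9078 bp), at a region of chromosome 15 with no protein-coding promoter (8548 bp), at *Gata3* (8430 bp) and at *Fyb* (8085 bp), an adaptor of T-cell receptor signalling. The widest of *GFI1-KD* after the *Hoxa* peak lay at *Pbx3*, a HOX cofactor (17785 bp), *Zbtb20* (16147 bp) and *Mef2d* (14026 bp), none of them on the neutrophil or monocyte list.

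Motif content separated the distal sites only weakly. Letters were searched on both strands within 100 bp of the summit, and the motifs can overlap. CAGCTG (E-box), the motif of the E proteins of lymphocytes and of muscle factors, was found at 16.0% of the sites of *GFI1-36S* alone (14.8 to 17.3), 13% of those of *GFI1-KD* alone (12.3 to 13.6) and 13.8% of all distal sites. TGANTCA (AP-1) was found at 4.89% (4.19 to 5.70), 6.11% (5.67 to 6.58) and 5.72%, with intervals that met. CACCC (KLF) was found at 43.4% (41.6 to 45.1), 40.5% (39.6 to 41.4) and 41.6%. TTGCNNAA (C/EBP) was found at 7.35% (6.49 to 8.32), 8.53% (8.02 to 9.08) and 8.02%, also with intervals that met. The median GC content of the windows was 50.2% in *GFI1-36S* and 48.8% in *GFI1-KD*. Within the most GC-rich of 3 equal groups of sites, the E-box shares were 23.3% (21 to 25.8) and 19.1% (17.8 to 20.5) and those of AP-1 3.44% (2.55 to 4.64) and 5.91% (5.14 to 6.79). GAGGAA (PU.1) also differed there, at 20.2% (18.1 to 22.6) and 24.9% (23.4 to 26.4). CACCC was lower in *GFI1-36S* there, at 54.2% (51.4 to 57.1) and 57.5% (55.8 to 59.3), but with intervals that overlapped. In the other 2 groups the intervals overlapped for all 4 of these motifs. Over all distal sites, the intervals also overlapped for the other motifs. The RUNX letters TGTGGT were found at 16.3% and 16.2% of the sites of *GFI1-36S* alone and *GFI1-KD* alone (16.0% of all distal sites), and the TCF/LEF letters CTTTGA at 13.4% and 13.4% (13.2%). The GATA letters AGATAA stood at 8.95% and 9.71% (9.42%) and those of PU.1 at 21.2% and 22.4% (21.9%). The IRF motif, spelled GAAANNGAA, was found at 7.76% and 8.30% (8.21%). The motif of GFI1 itself was spelled AATCACNGC and was rare, at 0.538% of all distal sites. It was found at 9 of 3130 sites (0.288%, 0.151 to 0.546) of *GFI1-36S* alone and at 67 of 10709 (0.626%, 0.493 to 0.794) of *GFI1-KD* alone. These matches are descriptions of the letters and not of binding.

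**Figure D5:**
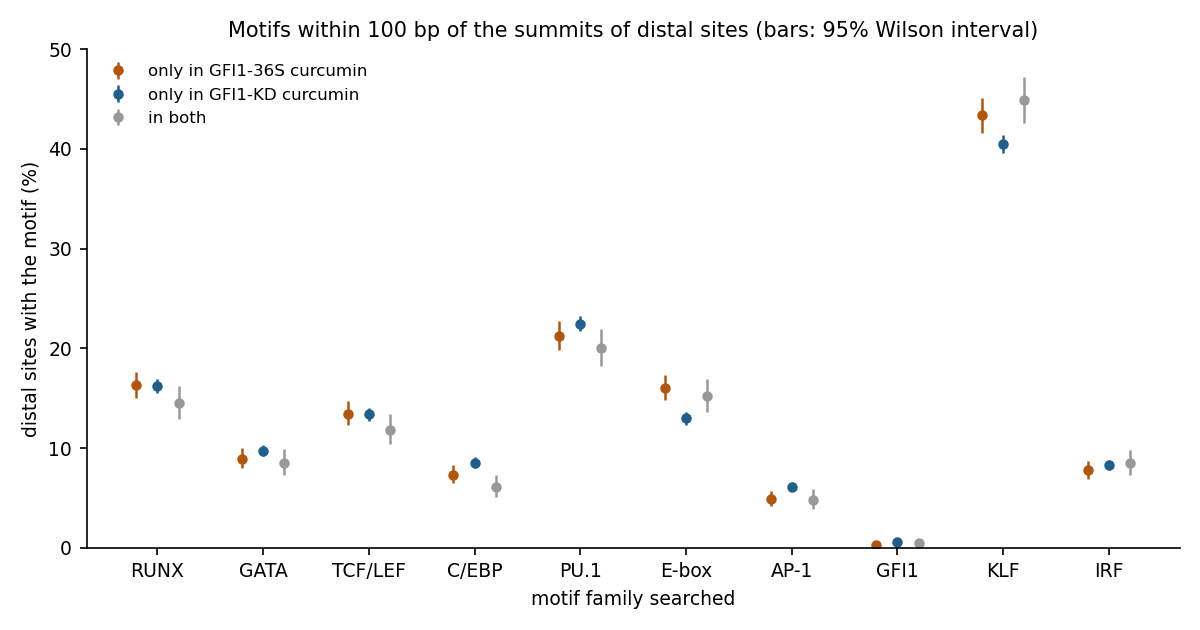
The percentage of distal sites with each motif within 100 bp of the summit (y axis) for 10 motif families (x axis), in sites of *GFI1-36S* curcumin alone (3130), of *GFI1-KD* curcumin alone (10709) and of both (1784), with 95% Wilson intervals. The E-box (16.0% against 13%) and KLF (43.4% against 40.5%) points of the 1-library sites are apart, and the intervals of the other 8 families overlap or meet.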

How the data were processed

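H3K9ac ChIP-seq was analysed in 6 libraries, 1 per genotype and treatment. Input and IgG samples were not used here. The authors trimmed reads with Trim Galore, mapped them to mm10 with BWA and used MACS2 to call peaks for every library separately, without black list regions; versions, thresholds and the control of each list are not given in the sources used here. The deposited fold enrichment is a ratio of summit pileup over a local background rate. The authors' peak caller also wrote −log10 p, −log10 q and an integer score. These values are not normalized between libraries, so peaks were ranked by fold enrichment within each list.

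Genes were taken from GENCODE M21 (GRCm38), with Python 3.11.15, numpy 2.4.6, scipy 1.17.1, pandas 2.3.3, matplotlib 3.10.9 and samtools 1.23.1. A promoter was 1000 bp on each side of a TSS of a protein-coding gene, overlap was at least 1 bp and distal sites lay over 2500 bp from any TSS. Fragments were recovered by inverting the peak caller's relation of fold enrichment and p, to within 0.05 of a whole number. Scaled ratios were divided by the ratio of mean fragments per base, 0.931, of the 2 libraries. Windows were read from the RefSeq sequence of GRCm38.p6. The steps were tested on simulated data.

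The members, gene lists and tests were chosen with earlier results of these data known. Named by rule were *Gfi1* and *Kit*, the 4 genes of each lineage list with the largest rank difference, the same for function lists over 10 points from the median of all genes, and the 6 highest-ranked promoters and distal sites of 1 library. Other genes were chosen after their values were seen, and some genes that the rule names are not reported here. Alternatives tried were peaks with −log10 q of 5 or more, equal numbers of peaks, the other *GFI1-36S* library, a 50% overlap, 10000 bp for distal sites, all chromosomes, a window of 3 kb and 3 other rankings.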

Additional observations from a re-analysis of the deposited data

Results flagged for a closer look

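Of the lineage lists, 3 had opposite medians for curcumin minus vehicle in the genotypes, each from 1 library per group, and these differences were not tested. For T-cell receptor and signalling genes the median was 35.9 points in *GFI1-36S* and −9.6 points in *GFI1-KD*. For T-lineage transcription factors it was 1.7 points in *GFI1-36S* and −10.8 points in *GFI1-KD*. For the *Hoxa* cluster it was −81.1 points in *GFI1-36S* and 25.1 points in *GFI1-KD*. If the names of the *GFI1-36S* lists are right in place of the sample titles, the *GFI1-36S* values change sign. Outside the autosomes, the *GFI1-36S* curcumin library had 3 peaks on chromosome Y, where the *GFI1-KD* curcumin library and the other 4 had 0.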

How the results depend on the processing

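Of 88 alternatives, 57 stayed within the interval of the main value, 25 moved outside it and 6 changed sign. No paired analysis was possible because each group has 1 library. With the other *GFI1-36S* library, the share of sites in both was 52.7% and of distal sites 39.0%, the *GFI1-36S* share of changed promoters 67.6% and of changed distal sites 74.1%, and the medians were 4.5 for T-cell receptor, 12.7 for T-lineage transcription factor, −3.5 for monocyte, and, with the sign changed, 6.4 for B-cell, 28.6 for neutrophil, 5.2 for stem and progenitor, 34.7 for erythroid and 11.9 for interferon-stimulated genes. With equal numbers of peaks, these 4 shares were 43.9%, 13.6%, 25.8% and 42.3%, and the interferon-stimulated median was −3.4. With a −log10 q of at least 5, the share of sites in both was 39.4%, of distal sites 10.9%, and the *GFI1-36S* share of changed distal sites 17.6%. With a 50% overlap, the shared sites were 34.5% and the shared distal sites 10.8%, and over 10000 bp from a TSS the latter were 10.4%. Without chromosomes 14 and 15, added after seeing the data, the *GFI1-36S* share of changed distal sites was 19.7%. Ranked among promoter peaks, a scale of smaller range, the medians were −16.7 for neutrophil, −28.0 for monocyte, −8.6 for stem and progenitor, −6.9 for erythroid and −7.8 for interferon-stimulated genes, where that of all genes was −5.0. Among genes with a peak in both, they were 16.4 for T-cell receptor, −45.0 for monocyte (4 genes) and, with the sign changed, 0.9 for stem and progenitor genes. The causes of these shifts were not tested.

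The main limits are the single library per group, the treatment of the *GFI1-36S* libraries, and the sex chromosomes of the *GFI1-36S* curcumin library, which differ from those of the other 5. A peak list cannot show acetylation below the caller's threshold, so that no peak does not mean no acetylation. Intervals cover counting error only, and neighbouring genes can share a peak. The strongest promoter peak of a gene can also lie at a different TSS in each library.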
